A study of Rattus norvegicus with 10 samples.

Results

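The heat shock proteins and J-domain proteins of the rat hippocampus were described as 1 gene family group, chosen by name alone. The rule took every gene symbol of the deposited count table that begins with Hsp or Dnaja, Dnajb or Dnajc in the pattern of these families. It left out the stress chaperones of the endoplasmic reticulum, Hspa5 and Hsp90b1, and the proteoglycan gene Hspg2. No measured value is part of the rule, but the rule was chosen with earlier results of these data known. It gave 67 of the 13686 gene symbols in the table, of which 26 were heat shock genes and 41 were J-domain genes. Levels are given as CPM, the counts of a gene scaled to the library total.

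The libraries came from the left hippocampus of 10 male rats of the TgF344-AD line, whose transgenes model Alzheimer disease, at 11 months of age. The 5 untreated rats ate rodent chow, and the 5 BT-11 rats were treated with the compound BT-11 for 6 months, from 5 months of age. BT-11 is a small molecule that binds the protein LANCL2 and is given by mouth. Both groups carried the transgenes and were anaesthetised with ketamine at 100 mg/kg plus xylazine at 10 mg/kg before perfusion, and no rat without the transgenes was among the samples analysed here. Each library came from a separate animal, and rats are named below by group and number. The comparison asks how gene expression in treated transgenic males differs from that in untreated ones. Library totals lay between 8984439 and 11301545 counts. Neuronal, astrocyte, oligodendrocyte and microglial markers were present in all 10. Choroid plexus markers, with Ttr as the main one, summed to 3805 CPM in untreated rat 2 and 732 CPM in untreated rat 5, against 8.32 to 69.3 CPM in the other 8. In tissue RNA of this kind, fewer cells of a type and less RNA per cell cannot be told apart.

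Chaperones bind unfolded or partly folded proteins and either hold them, fold them or pass them on for degradation. HSP70 proteins do so in a cycle of ATP binding and hydrolysis. J-domain proteins start that cycle by stimulating the HSP70 ATPase and by choosing the client, and HSP110 proteins end it by exchanging the nucleotide. HSP90 proteins act later, on kinases, steroid receptors and other near-native clients, while small heat shock proteins hold unfolded proteins without ATP. In neurons the HSP70 protein Hspa8 also works at the synapse, with Dnajc5 on synaptic vesicles and with Dnajc6 in the removal of clathrin coats. A subset of these genes is switched on in stress by the transcription factor HSF1, which binds heat shock elements, repeats of the bases GAA in alternating orientation.

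In these hippocampi the family was abundant and uneven. Together the 67 genes took 1.07% of all counts, and Hsp90aa1, Hsp90ab1 and Hspa8 held 53.1% of that. Another 14 genes made up the rest of the 17 above 100 CPM, 33 were between 10 and 100 CPM, and 12 were between 1 and 10 CPM. The other 5, Dnajb7, Dnajc22, Hspb2, Hspb7 and Hspb9, averaged under 1 CPM in all libraries and did not pass the filter on low counts, so 62 genes were tested for a difference.

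Divided by the length of the gene model, the order of levels was led by the cytosolic machinery. Hsp90aa1 stood at 840.2 ± 139 CPM per kilobase, Hsp90ab1 at 816 ± 48.0 and Hspa8 at 679 ± 44.7 (SD, n = 10). The first and second of these did not differ beyond their spread over libraries. Dnaja1, the main class A partner of Hspa8, followed at 179 ± 13.0 CPM per kilobase. Next came the HSP110 gene Hsph1 at 132 ± 8.71, Dnaja2 at 109 ± 4.96 and the mitochondrial co-chaperonin gene Hspe1 at 107 ± 12.2, the latter pair within their spread of each other. Dnajc6, the gene of the clathrin uncoating factor auxilin, had the highest class C level at 97.7 ± 13.0 CPM per kilobase. The classical heat-induced HSP70 genes Hspa1a and Hspa1b stood at 1.11 and 0.221 CPM per kilobase as listed, near the bottom of the order. Between libraries these genes varied by a median of 10.5% (coefficient of variation), against 13% over all genes tested, without matching for level.

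**Figure D1:**
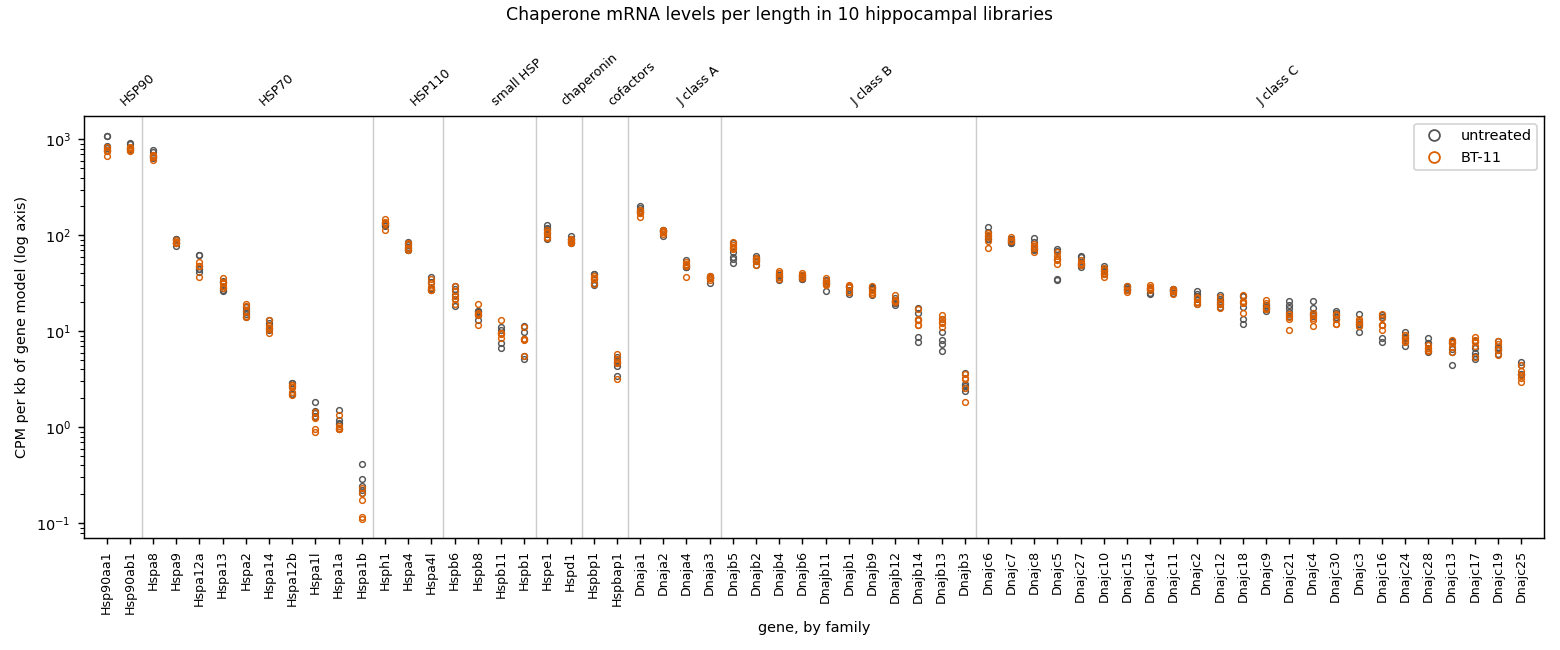
Levels of the 62 tested chaperone genes in CPM per kilobase of gene model (vertical axis, log scale), grouped by family and sorted by mean; each circle is 1 library, grey untreated (n = 5) and orange BT-11 (n = 5). Hsp90aa1, Hsp90ab1 and Hspa8 stand above all other genes, and the circles of both colours overlap for every gene.

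Several of the listed levels depend on how the table divides near-identical gene copies, and these are uncertain. Hspa8 has 3 entries (build rn6, coordinates as listed). A gene model without introns on chromosome 11 (13499164 to 13501264, plus strand) held 1079 CPM, or 75.6% of the Hspa8 counts. Another without introns on chromosome 6 (34553288 to 34555387, minus strand) held 345 CPM. The model with introns, on chromosome 8 (44989401 to 44993262, plus strand), held 1.16 CPM. RefSeq, on build GRCr8, places the coding Hspa8 gene on chromosome 8 and lists 33 Hspa8 pseudogenes, 2 of them on chromosome 11 and 1 on chromosome 6. The 3 entries were therefore summed and read as Hspa8 and its copies together.

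Hsp90aa1 has 2 entries on chromosome 6 (135044841 to 135050370 and 135107265 to 135112794, both on the minus strand) of 1169 CPM each, with log2 fold changes of -0.30 in both. One of the pair lies inside the model of Dync1h1, a dynein motor gene on the opposite strand at 695 CPM. The entry listed as Hspa1b (chromosome 20, 4875834 to 4881752, minus strand) has no introns and contains the entry LOC108348108 (4877324 to 4879780, minus strand), which RefSeq now names Hspa1b. LOC108348108 held 28.4 CPM against 1.31 CPM for the entry listed as Hspa1b, so both are given below. Hspa1a and Hspa1l overlap by 469 bases on opposite strands. Dnaja3, a mitochondrial class A gene, has 2 entries of 57.2 and 4.07 CPM, whose separate log2 fold changes were 0.04 and -0.62 (edgeR adjusted p = 0.869 and 0.558).

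No chaperone gene differed between BT-11 and untreated rats at an adjusted p of 0.05. By the quasi-likelihood test of edgeR, adjusted by the Benjamini-Hochberg method over the 11771 genes tested, 0 of 62 passed. The background is 0% (0 of 11771 genes), the smallest adjusted p among the chaperones was 0.458, and DESeq2 also called 0 of them. At an unadjusted p under 0.05, 6 of 62 lay, or 9.68%, against 9.09% of all genes. Of these, 2 were higher with BT-11, Dnajb13 and Dnajb5 (background 4.04%), and 4 were lower, Dnajc21, Hsp90aa1, Hspa1b and Dnajc4 (background 5.05%). The share of chaperones at that level is near the background. In 0 of 62 did the BT-11 and untreated libraries fail to overlap (background 1.12%).

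By direction, 24 of 62 genes were higher and 38 were lower, so 38.7% were higher against 48.2% of all genes. The median log2 fold change was -0.03, against -0.01 over all genes. The intervals bound what these samples could hide: the 95% interval lay within 1.5-fold in either direction for 58 of 62 genes, and within 1.2-fold for 27. Among all genes these intervals were as narrow for 9271 and 3256 of 11771. In counts simulated for this comparison over 11771 genes, 57.3% of genes changed 1.5-fold were called, and 88.3% of those changed 2-fold. The simulation changed a small part of the genes and drew the noise of each gene independently. It held no feature shared within a library, such as choroid plexus RNA, so the rates may differ in the real data.

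**Figure D2:**
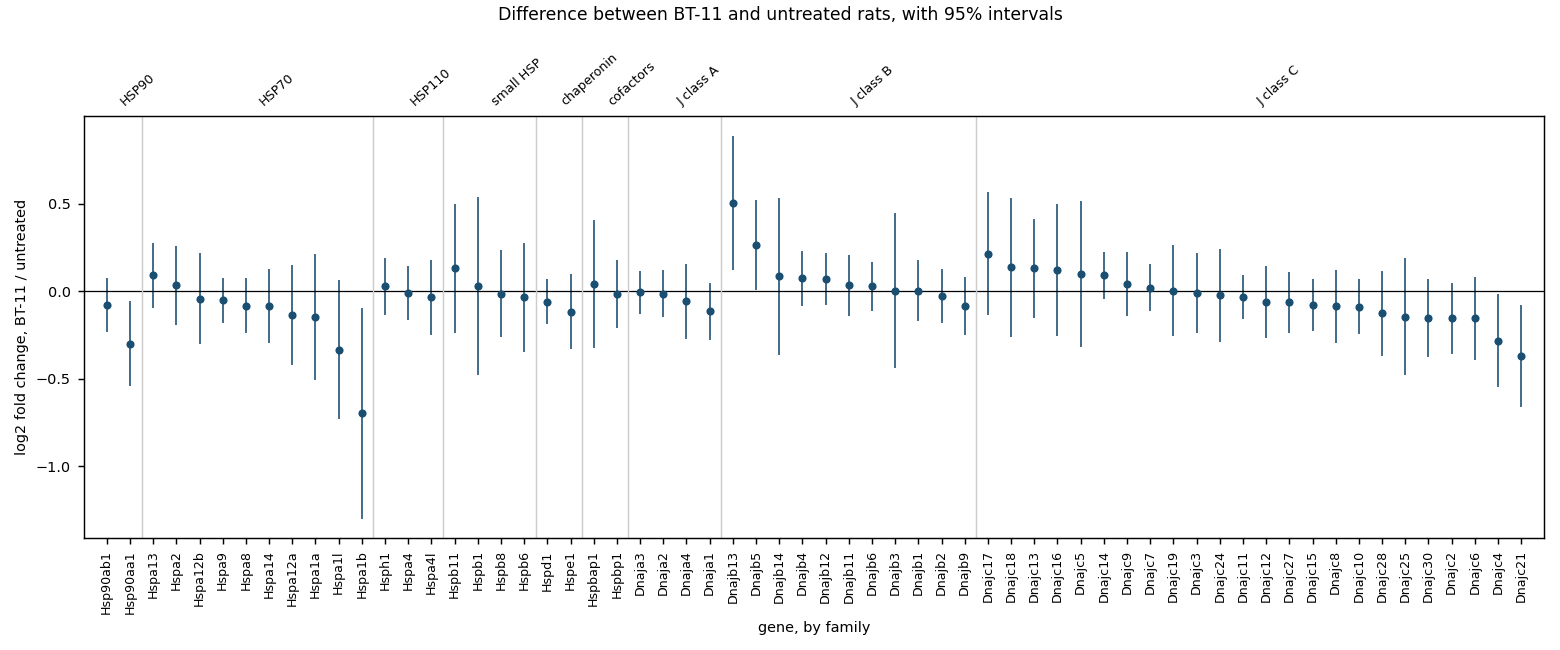
Log2 fold change of BT-11 (n = 5) against untreated (n = 5) for the 62 tested chaperone genes, grouped by family; points are the edgeR estimates and bars their 95% intervals. For 6 genes the bar does not cross 0, before adjustment for the 11771 genes tested, and most other points lie within 0.2 of it.

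Among the HSP90 genes, Hsp90aa1, the stress-responsive cytosolic isoform, was at 2994, 3041, 2151, 2375 and 2285 CPM in untreated rats 1 to 5. It was at 2299, 1852, 2089.9, 2172 and 2117 CPM in BT-11 rats 1 to 5. Rats 1 and 2 of the untreated group stood well above the other 8, and the remaining untreated values fell among the BT-11 values or just above them. The means were 2569 ± 417 and 2106 ± 163 CPM (SD, n = 5 each), with a log2 fold change of -0.30 ± 0.112 (SE; 95% interval -0.54 to -0.06; unadjusted p = 0.0196, adjusted p = 0.475 in edgeR). Without untreated rat 1 it was -0.22 (unadjusted p = 0.0563), and without untreated rat 2 -0.23 (unadjusted p = 0.0588). It was -0.40 among the rats numbered 1 to 3 and -0.12 among those numbered 4 and 5, a difference that was not tested.

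Hsp90ab1, the constitutive isoform, had means of 1951 ± 141 and 1865 ± 60.6 CPM. Its highest values were again in untreated rats 1 and 2, at 2128 and 2077 CPM, against 1777 to 1922 CPM in the other 8. Its log2 fold change was -0.08 (95% interval -0.23 to 0.07; edgeR adjusted p = 0.760).

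Of the 10 HSP70 genes tested, 2 were higher and 8 were lower (20% higher, against 48.2% of all genes). Their median log2 fold change was -0.08, with 0 past an adjusted p of 0.05. Hspa8 was at 1541, 1618, 1353, 1402 and 1388 CPM in untreated rats and at 1379.8, 1289, 1429, 1408 and 1449.9 CPM in BT-11 rats. Untreated rats 1 and 2 were highest, BT-11 rat 2 was lowest, and the groups overlapped over the rest of their range. The means were 1460.5 ± 113 and 1391 ± 62.8 CPM, and the log2 fold change was -0.08 ± 0.0733 (95% interval -0.24 to 0.08; edgeR adjusted p = 0.755).

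Hspa9, the HSP70 protein of the mitochondrial matrix, was at 247 ± 17.2 and 239.8 ± 7.53 CPM, a log2 fold change of -0.05 (95% interval -0.18 to 0.07). Hspa13, an HSP70-related protein of the microsomes, was at 47.4 ± 5.10 and 50.9 ± 4.74 CPM, for a log2 fold change of 0.09. Hspa12a, a distant and brain-rich relative of HSP70, ranged more widely: its highest values were 394 and 390.2 CPM, in untreated rats 4 and 5, and its lowest was 233 CPM, in BT-11 rat 2.

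The heat-induced HSP70 genes were low in both groups. LOC108348108, named Hspa1b in RefSeq, was at 37.8, 40.0, 24.8, 30.5 and 24.6 CPM in untreated rats and at 32.8, 22.8, 27.3, 19.6 and 23.7 CPM in BT-11 rats. The highest were again untreated rats 1 and 2, with BT-11 rat 1 next, and the other values interleaved. Its means were 31.6 ± 7.18 and 25.2 ± 5.03 CPM, for a log2 fold change of -0.33 ± 0.172 (95% interval -0.70 to 0.04; edgeR adjusted p = 0.599).

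The entry listed as Hspa1b was at 1.30, 2.45, 1.46, 1.71 and 1.21 CPM in untreated rats and at 1.22, 1.03, 0.662, 0.684 and 1.38 CPM in BT-11 rats. BT-11 rats 2, 3 and 4 lay below all untreated values, and BT-11 rats 1 and 5 lay among them. Its log2 fold change was -0.70 ± 0.277 (95% interval -1.30 to -0.09; unadjusted p = 0.0267, adjusted p = 0.499 in edgeR). With the counts of LOC108348108 added it was -0.35 (unadjusted p = 0.0608, adjusted p = 0.576 in edgeR), a sum chosen after the values were seen. Leaving out untreated rat 2, BT-11 rat 3 or BT-11 rat 4 took the unadjusted p of the listed entry to 0.0853, 0.0642 and 0.0639.

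Hspa1a was at 4.61 ± 0.809 and 4.19 ± 0.665 CPM, and the testis-rich family member Hspa1l at 3.84 ± 0.583 and 3.05 ± 0.618 CPM. Their log2 fold changes were -0.15 and -0.33, with edgeR adjusted p-values of 0.817 and 0.620.

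Of the 3 HSP110 genes, 1 was higher and 2 were lower, all within 0.04 of 0 on the log2 scale. Hsph1 was at 443, 446, 444, 462 and 429.9 CPM in untreated rats and at 458, 389.7, 475, 459.9 and 504 CPM in BT-11 rats. The untreated values sat close together inside the wider BT-11 range. Its means were 445 ± 11.6 and 457 ± 42.1 CPM, and the log2 fold change was 0.03 ± 0.0749 (95% interval -0.13 to 0.19). Hspa4 was at 345 ± 27.2 and 346 ± 24.5 CPM, with an interval of -0.17 to 0.15.

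The small heat shock genes chosen by name were scarce in comparison, with a sum over 7 genes of 73.4 ± 11.2 CPM without and 73.9 ± 11.6 CPM with BT-11. Hspb6, which encodes HSP20, was the most abundant of these 7 at 31.8 ± 5.78 and 31.4 ± 5.37 CPM. Cryab, a small heat shock gene that the name rule leaves out, was higher than Hspb6, at 62.86 ± 20.25 and 64.38 ± 9.82 CPM. Hspb1, which encodes the heat-inducible HSP27, was among the 3 most variable chaperones tested (coefficient of variation 27.5%, with Hspa1b at 39.3% and Dnajb13 at 26.6%). Hspb1 was at 7.31, 10.2, 8.77, 4.90 and 4.60 CPM in untreated rats and at 7.41, 9.83, 4.94, 7.20 and 7.42 CPM in BT-11 rats. Rats numbered 2 were highest in both groups, and the low values were those of untreated rats 4 and 5 and BT-11 rat 3. Its log2 fold change was 0.03 with a wide interval of -0.48 to 0.54. It was -0.26 among the rats numbered 1 to 3 (edgeR adjusted p = 0.716) and 0.63 among those numbered 4 and 5 (adjusted p = 0.124).

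The mitochondrial chaperonin genes Hspd1 and Hspe1, which encode HSP60 and its lid HSP10, were at 201 ± 12.9 and 194 ± 6.30 CPM, and at 58.9 ± 7.80 and 54.8 ± 4.71 CPM. Their log2 fold changes were -0.06 (95% interval -0.19 to 0.07) and -0.12 (-0.33 to 0.10). Across the 10 mitochondrial members of the family, 1 was higher and 9 were lower, with a median of -0.07. Thus 10% were higher, against 48.2% of all genes. Of the 10, 1, Dnajc4, had an unadjusted p under 0.05 in edgeR, or 10%, against 9.09% of all genes.

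Promoters were searched for heat shock elements, since HSF1 acts through them. The RefSeq windows on build GRCr8 reach from 250 bases before to 50 bases after the start of the gene, and 53 of the 67 genes had one; Hsp90aa1 and Hspa1b did not. A three-unit element (GAANNTTCNNGAA or TTCNNGAANNTTC, which are reverse complements, so that both strands are covered) was in 5 of 53 windows, or 9.43%, against 267 of 33469 rat windows, or 0.798%. The 5 genes are Hspa8, Hsph1, Dnaja1, Hspd1 and Hspe1. The shorter GAANNTTC, which the longer motifs contain, was in 12 of 53 (22.6% against 8.59% of all windows), and TTCNNGAA, which they also contain, was in 10 of 53 (18.9% against 8.77%). A match is a description of the letters, not evidence of binding. The windows are shown 5′ to 3′ on the strand of the gene because they hold the three-unit match, which is in capitals. In Hspa8 (chr8:50080264-50080563, plus strand) the matches begin 213 and 55 bases before the start. In Hsph1 (chr12:10427118-10427417, plus strand) the match begins 36 bases before it, and in Dnaja1 (chr5:60638154-60638453, plus strand) 9 bases after it.
Hspa8: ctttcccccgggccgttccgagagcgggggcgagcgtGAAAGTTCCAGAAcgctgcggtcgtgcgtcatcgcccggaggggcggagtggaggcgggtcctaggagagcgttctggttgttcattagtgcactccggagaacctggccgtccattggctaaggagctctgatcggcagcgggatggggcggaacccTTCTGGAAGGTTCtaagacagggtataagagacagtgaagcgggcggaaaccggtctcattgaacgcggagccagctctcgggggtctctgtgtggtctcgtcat
Hsph1: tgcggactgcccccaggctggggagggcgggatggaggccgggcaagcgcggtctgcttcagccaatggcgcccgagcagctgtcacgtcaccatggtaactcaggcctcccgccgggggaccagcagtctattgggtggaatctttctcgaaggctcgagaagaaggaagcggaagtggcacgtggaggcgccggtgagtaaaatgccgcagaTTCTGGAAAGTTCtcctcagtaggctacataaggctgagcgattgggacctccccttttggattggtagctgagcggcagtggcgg
Dnaja1: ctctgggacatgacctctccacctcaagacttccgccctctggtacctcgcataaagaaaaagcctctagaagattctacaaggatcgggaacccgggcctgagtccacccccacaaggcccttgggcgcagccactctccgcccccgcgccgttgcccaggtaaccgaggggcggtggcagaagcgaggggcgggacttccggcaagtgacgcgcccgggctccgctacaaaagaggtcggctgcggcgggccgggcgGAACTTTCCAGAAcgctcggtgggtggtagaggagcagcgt
Hspd1 and Hspe1 start from opposite strands of one short region, and the 211 bases that both windows share (chr9:64084077-64084287, plus strand, the strand of Hspe1) hold overlapping matches that begin 65 bases before the start of Hspe1.
Hspd1 and Hspe1: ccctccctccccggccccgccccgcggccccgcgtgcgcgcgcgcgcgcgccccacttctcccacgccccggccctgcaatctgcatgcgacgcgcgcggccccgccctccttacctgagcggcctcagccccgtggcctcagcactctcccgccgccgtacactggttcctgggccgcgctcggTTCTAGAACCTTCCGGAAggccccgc

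A list of 12 members taken as heat-inducible included Hspa8, which was abundant in every library. These 12 did not move one way as measured here: 4 were higher and 8 were lower, with a median of -0.07. Thus 33.3% were higher, against 48.2% of all genes. Of the 5 genes with a three-unit match, Hsph1 was at a log2 fold change of 0.03, and Hspa8, Dnaja1, Hspd1 and Hspe1 were between -0.06 and -0.12. Hsp90aa1 and the entry listed as Hspa1b, the heat-inducible genes with an unadjusted p under 0.05, have no window.

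The direction of J-domain genes was counted by class, and a difference between the classes was not tested. Over all genes tested, 48.2% were higher. All 4 class A genes were lower, with a median of -0.04. Of 11 class B genes, 9 were higher and 2 were lower (median 0.03), and of 24 class C genes 9 were higher and 15 were lower (median -0.05). Summed over class B, levels were 684 ± 46.8 CPM without and 736 ± 18.4 CPM with BT-11, and most of that difference came from Dnajb5 and Dnajb13. The sums were 650.4 ± 28.1 and 627 ± 34.0 CPM for class A, and 1715 ± 113 and 1651 ± 90.5 CPM for class C. Dnajb5 and Dnajb13 were the class B genes with an unadjusted p under 0.05.

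Dnajb13, which in human and mouse encodes a radial spoke protein of cilia and sperm flagella, lies on chromosome 1 (rn6, 165515724 to 165530096, minus strand). It was at 22.1, 18.3, 30.1, 16.7 and 14.2 CPM in untreated rats and at 27.6, 24.9, 30.4, 28.2 and 33.6 CPM in BT-11 rats. Untreated rat 3 stood among the BT-11 rats, and the other 4 untreated rats were below all of them. The means were 20.3 ± 6.19 and 28.9 ± 3.27 CPM, for a log2 fold change of 0.51 ± 0.176 (95% interval 0.12 to 0.89; unadjusted p = 0.0139, adjusted p = 0.458 in edgeR).

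Of 10 listed markers of ciliated ependymal cells, 7 were in the table analysed here, and their summed level ranged from 15.0 to 68.0 CPM without and from 14.5 to 35.0 CPM with BT-11. Foxj1, the master regulator of motile cilia, was at 8.5, 24.11, 4.28, 6.68 and 6.11 CPM in untreated rats. In BT-11 rats it was at 7.49, 8.83, 3.48, 11.21 and 7.15 CPM. Its highest value was in untreated rat 2, the library with the most choroid plexus RNA. Ccdc153, another listed marker, was at 4.03, 3.85, 0.75, 2.45 and 1.95 CPM in untreated rats and at 3.03, 4.41, 0.48, 4.9 and 3.31 CPM in BT-11 rats. Rsph1, also listed, was instead at 4.8, 10.13, 2.46, 4.56 and 6.72 CPM in untreated rats. In BT-11 rats Rsph1 was at 3.66, 4.71, 3.39, 3.8 and 1.7 CPM. Of the 6 ependymal markers tested, 2 were higher and 4 were lower with BT-11, with log2 fold changes from -0.75 to 0.57, and the part of ciliated cells in the level of Dnajb13 was not tested. Wfs1, a marker of CA1 pyramidal neurons examined after its values were known, was at 130, 91.9, 284, 107 and 130.3 CPM in untreated rats and at 314, 201, 459, 436 and 374 CPM in BT-11 rats. It too was highest among untreated rats in rat 3. So were Prox1, a marker of dentate granule cells, at 82.13 CPM, and the astrocyte marker Gfap, at 2334 CPM. Mbp and Snap25, markers of oligodendrocytes and neurons, were instead highest in untreated rat 1. The part of these cell types in the level of Dnajb13 was not tested.

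Dnajb5, a class B protein known from rodent heart muscle cells to bind the histone deacetylase HDAC4, lies on chromosome 5 (rn6, 58393233 to 58401880, plus strand). It was at 170.2, 149, 211, 145 and 129.5 CPM in untreated rats and at 183, 185, 215, 190.5 and 199 CPM in BT-11 rats. Again untreated rat 3 stood among the BT-11 rats and the other 4 lay below. The means were 161 ± 31.6 and 195 ± 13.1 CPM, for a log2 fold change of 0.26 ± 0.118 (95% interval 0.01 to 0.52; unadjusted p = 0.0453, adjusted p = 0.539 in edgeR). Leaving out any of untreated rats 2, 4 and 5 or BT-11 rats 3, 4 and 5 gave an unadjusted p of 0.0593 or more.

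Values of both genes in subsets of the rats follow. Among the rats numbered 4 and 5, 2 in each group, Dnajb13 had a log2 fold change of 1.01 (edgeR adjusted p = 0.00617) and Dnajb5 0.51 (adjusted p = 0.0109). Among those numbered 1 to 3, it was 0.22 for Dnajb13 (unadjusted p = 0.248) and 0.13 for Dnajb5 (unadjusted p = 0.367). The difference between these sets was not tested. Without untreated rats 2 and 5, the libraries with much choroid plexus RNA, the log2 fold changes were 0.32 and 0.14 (edgeR unadjusted p = 0.0949 and 0.271). Without untreated rat 3 they were 0.69 and 0.38 (unadjusted p = 0.000459 and 0.00202, adjusted p = 0.0604 and 0.113).

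The other named class B genes differed less. Dnajb1, the inducible partner of HSP70, was at 60.6 ± 4.64 and 61.2 ± 4.94 CPM, for a log2 fold change of 0.00 (95% interval -0.17 to 0.18). Dnajb6, known as a suppressor of polyglutamine aggregation, was at 90.3 ± 4.34 and 92.9 ± 4.93 CPM (95% interval -0.11 to 0.17). In class A, Dnaja1 was at 298 ± 19.6 and 278 ± 18.3 CPM, for a log2 fold change of -0.12 (95% interval -0.28 to 0.04; edgeR adjusted p = 0.661).

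Dnajc21 was the class C gene with the smallest p. In human cells it is a factor of ribosome biogenesis, and it lies on chromosome 2 (rn6, 60419446 to 60438359, minus strand). It was at 25.7, 23.4, 17.6, 21.4 and 19.6 CPM in untreated rats and at 18.6, 12.7, 16.5, 18.8 and 17.4 CPM in BT-11 rats. BT-11 rat 2 was lowest of all, untreated rats 1 and 2 were highest, and untreated rat 3 lay within the BT-11 range. The means were 21.6 ± 3.18 and 16.8 ± 2.46 CPM, and the log2 fold change was -0.37 ± 0.133 (95% interval -0.66 to -0.08; unadjusted p = 0.0164, adjusted p = 0.475 in edgeR). It was -0.49 among the rats numbered 1 to 3 and -0.17 among those numbered 4 and 5.

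Dnajc4 was at 14.6, 19.8, 16.7, 13.6 and 14.5 CPM in untreated rats and at 14.8, 14.2, 12.6, 10.9 and 13.1 CPM in BT-11 rats. Its highest value was in untreated rat 2 and its lowest in BT-11 rat 4. Untreated rats 2 and 3 lay above all BT-11 values, BT-11 rats 3, 4 and 5 lay below all untreated values, and the other values interleaved. The log2 fold change was -0.28 ± 0.121 (95% interval -0.55 to -0.02; unadjusted p = 0.0383, adjusted p = 0.523 in edgeR), and leaving out untreated rat 2 or 3 or BT-11 rat 3, 4 or 5 gave an unadjusted p of 0.0617 or more.

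**Figure D3:**
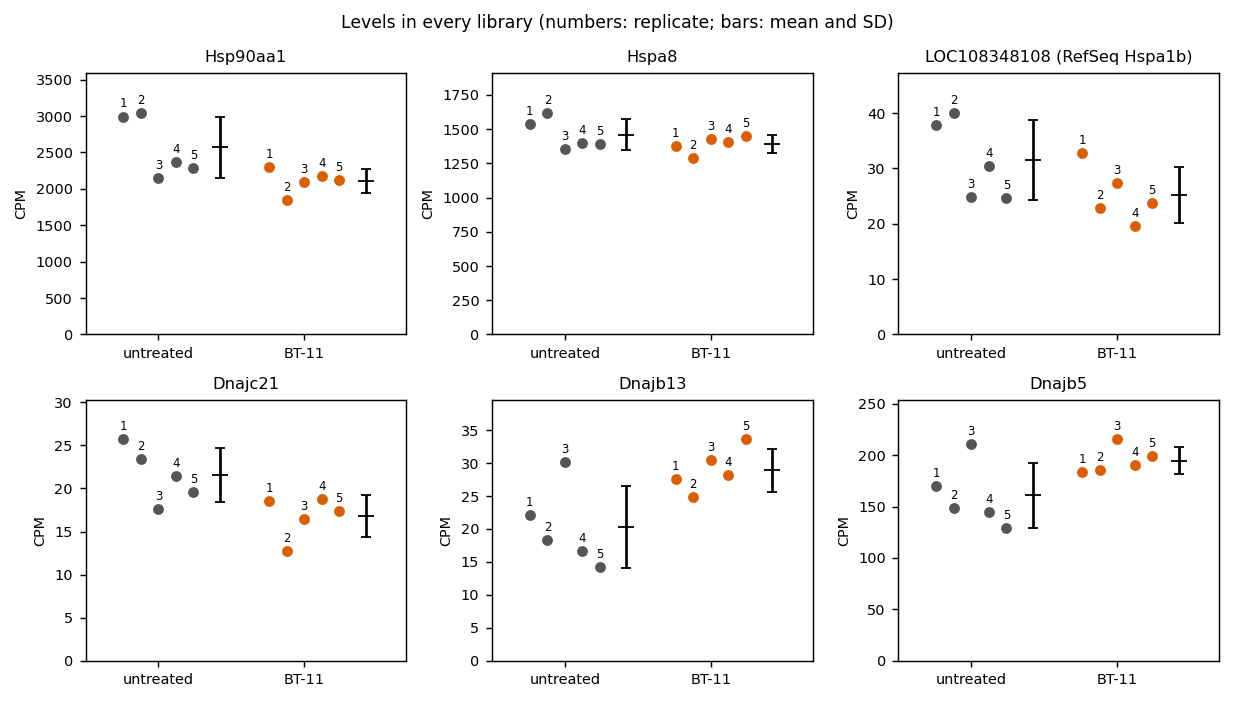
Levels of 6 genes in CPM in every library (points numbered by rat; grey untreated, orange BT-11), with the mean and SD of each group (n = 5 each) beside them. Untreated rats 1 and 2 are highest for Hsp90aa1, Hspa8 and LOC108348108, while untreated rat 3 sits among the BT-11 rats for Dnajb13 and Dnajb5.

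In both synaptic J-domain genes the SD between rats exceeded the difference of the group means in at least 1 group. Dnajc5, which encodes the cysteine string protein of synaptic vesicles, was at 32.2, 32.8, 53.3, 64.3 and 67.5 CPM in untreated rats and at 46.4, 52.9, 51.2, 57.0 and 62.3 CPM in BT-11 rats. The lowest were untreated rats 1 and 2 and the highest untreated rats 4 and 5, so that the untreated values enclosed all BT-11 values. The log2 fold change was 0.10 with an interval of -0.32 to 0.52 (edgeR adjusted p = 0.899). Among the rats numbered 1 to 3 it was 0.34, and among those numbered 4 and 5 it was -0.14.

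Dnajc6 was at 497, 471, 468, 619 and 555 CPM in untreated rats and at 485, 375, 444, 539.9 and 517 CPM in BT-11 rats. Its highest value was in untreated rat 4 and its lowest in BT-11 rat 2. The means were 522 ± 64.3 and 472 ± 65.1 CPM, and the log2 fold change was -0.16 ± 0.109 (95% interval -0.39 to 0.08; edgeR adjusted p = 0.694).

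Another 4 class C genes were named by the rank of their p, and all had an unadjusted p above 0.05. Dnajc2, a ribosome-associated chaperone, had a log2 fold change of -0.15 ± 0.0934. Dnajc17, Dnajc13 and Dnajc14 had 0.21 ± 0.162, 0.13 ± 0.130 and 0.09 ± 0.0611. Dnajc13 is an endosomal sorting factor and Dnajc14 a membrane protein of the endoplasmic reticulum. Adjusted p-values of these 4 genes were between 0.642 and 0.785 in edgeR.

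The extremes of these genes were counted per rat beside those of all genes. The untreated rats 1 and 2 were the highest pair of all 10 for 9 of 62 genes (14.5%, against 11% of all genes tested): Hsp90aa1, Hsp90ab1, Hspa8, Hspe1, Dnaja1, Dnajb2, Dnajc8, Dnajc21 and Hspbp1. The same rats were the lowest pair for 6 of 62 (9.68%, against 16.1% of all genes): Dnajb12, Dnajb14, Dnajc5, Dnajc13, Dnajc16 and Dnajc18. The lowest level fell in BT-11 rat 2 for 14 of 62 genes (22.6%, against 11.3% of all genes), in untreated rat 5 for 13 (21%, against 12.9%) and in untreated rat 1 for 11 (17.7%, against 21.9%).

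Other features also set some of these libraries apart. Over all genes tested, the median log2 deviation from the gene mean of long gene models (3373 bases and more) minus that of short ones (up to 1502 bases) was -0.29 and -0.22 in untreated rats 1 and 2. It was 0.16 and 0.19 in untreated rats 4 and 5, and between -0.08 and 0.12 in the other 6. The summed level of 12 pan-neuronal markers was 11072 to 13192 CPM without and 9166 to 11489 CPM with BT-11, with the lowest value in BT-11 rat 2. The highest sums were 13192 CPM in untreated rat 1, 12732 in rat 4 and 12494 in rat 2. Single markers differed in order: Snap25 was highest in untreated rats 1 and 2, at 4564 and 4072 CPM, while Rbfox3 was at 112 to 135 CPM in untreated rats and at 143 to 160.0 CPM in BT-11 rats. Rbfox3 was the 1 of these 12 markers that was higher with BT-11, and 11 were lower (8.33% higher, against 48.2% of all genes). It was also the 1 of 12 in which the groups did not overlap (background 1.12%). The part of transcript length, or of neuronal RNA, in the levels of Hsp90aa1, Hspa8 and the other 7 genes was not tested.

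**Figure D4:**
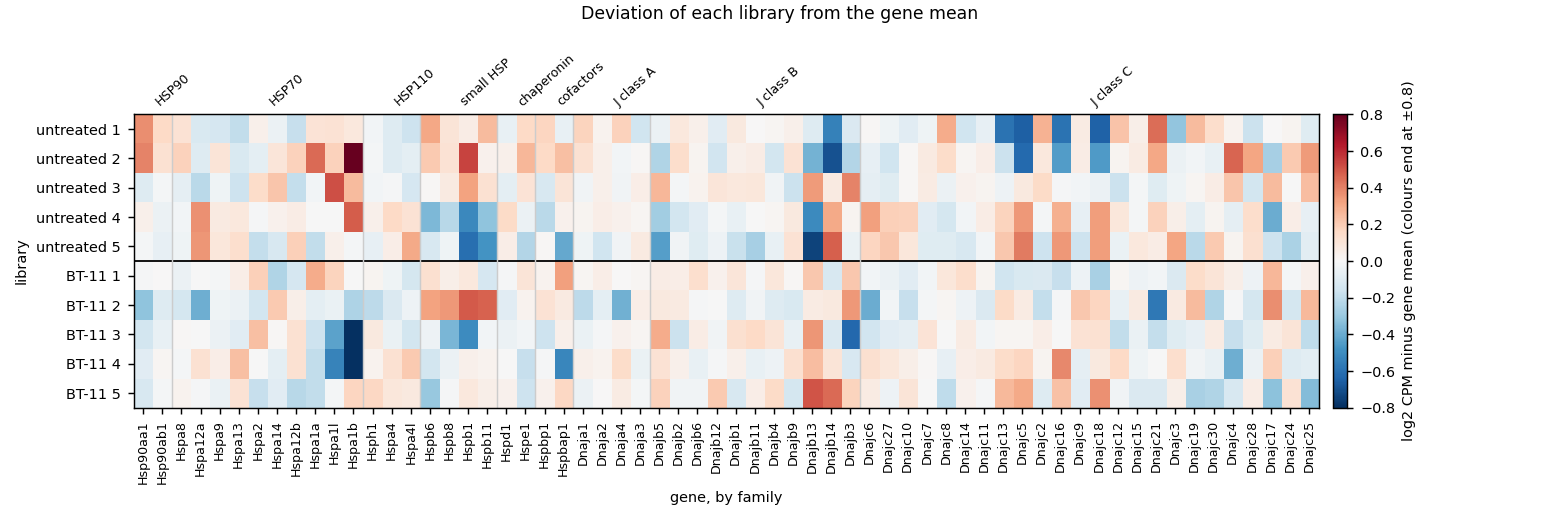
Deviation of each library from the gene mean on the log2 CPM scale (colour, limited at 0.8 in either direction) for the 62 tested chaperone genes, grouped by family; rows are the 5 untreated and 5 BT-11 libraries. Untreated rats 1 and 2 share high values of Hsp90aa1, Hsp90ab1 and Hspa8 and low values of Dnajb14, Dnajc5, Dnajc16 and Dnajc18.

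Levels of 4 chaperones from the heat-inducible list, Hspa8, Hsp90aa1, Hsph1 and Dnajb1, were set against each other over the 10 rats, which gave 6 pairs. Hspa8 was abundant in every rat, at 1289 to 1618 CPM, and induction by heat was not measured. Hspa8 and Hsp90aa1 had a Pearson correlation of 0.90 in log2 CPM (permutation p = 0.00213, Benjamini-Hochberg adjusted p = 0.0128 over 6 pairs), but a Spearman rho of 0.48 (permutation p = 0.168, adjusted p = 0.394). Without the 2 rats farthest from the median of Hspa8, Pearson's r was 0.61. Leaving out untreated rat 1, untreated rat 2 or BT-11 rat 2 gave r of 0.86, 0.85 and 0.86, with permutation adjusted p-values of 0.108, 0.114 and 0.131, so r changed little while the call was lost. Over the 6 rats numbered 1 to 3 r was 0.95, and with values centred on the group mean it was 0.91; the rats numbered 4 and 5 are too few for a value. The part of the Hspa8 copies and of the Dync1h1 overlap in this relation was not tested.

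The other 5 pairs had Pearson correlations of 0.25 to 0.50, with permutation adjusted p-values of 0.387 or more. The highest of these was 0.50 for Hspa8 and Hsph1 (Spearman rho 0.59), and it was 0.08 without BT-11 rat 2 and 0.95 without the 2 rats farthest from the median of Hspa8.

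**Figure D5:**
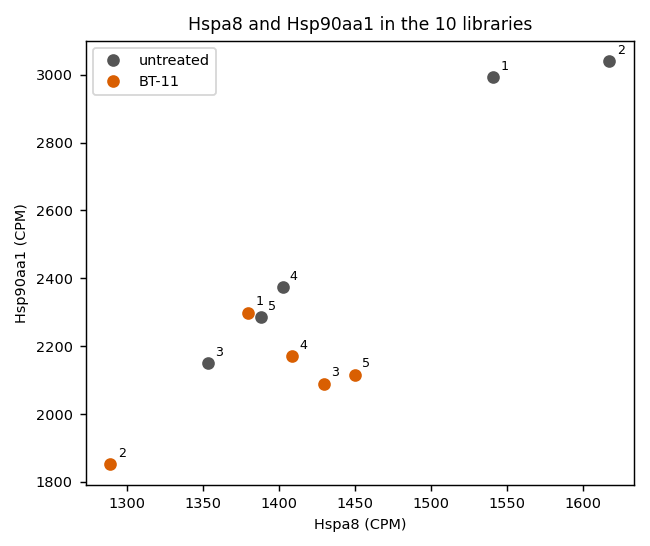
Hsp90aa1 against Hspa8 in CPM in the 10 libraries (both axes linear and not starting at 0; grey untreated, orange BT-11, numbers are rats). Untreated rats 1 and 2 at the upper right and BT-11 rat 2 at the lower left lie apart from the other 7.

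Beyond the family, 50 co-chaperones and genes around HSF1 were listed with it, and 47 were tested. Of these, 10 were higher and 37 were lower with BT-11, so 21.3% were higher against 48.2% of all genes. The median log2 fold change was -0.07, against -0.01 over all genes. In edgeR, 1 of 47 had an unadjusted p under 0.05, or 2.13%, against 9.09% of all genes. An adjusted p of 0.05 was passed by 0 (smallest 0.454). Unc45a, a co-chaperone of HSP90 that serves myosin folding, was at 48.5 ± 3.51 and 42.3 ± 2.54 CPM, for a log2 fold change of -0.21 ± 0.0736 (unadjusted p = 0.0129, adjusted p = 0.454 in edgeR). The next smallest p among lower genes were those of Cct8, a subunit of the cytosolic chaperonin, and Pfdn6, a subunit of prefoldin, with -0.15 and -0.22. Among higher genes Hsf4, a relative of HSF1, had 0.50 ± 0.245 at 1.72 and 2.49 CPM, and the BAG-domain cofactors Bag4 and Bag2 had 0.17 and 0.14. Hsf1 itself had 0.01. The 12 pan-neuronal and 10 astrocyte markers had medians of -0.18 and -0.20, with 11 and 9 of them lower, while all 10 oligodendrocyte markers were higher (median 0.18); the part of cell mixture in the chaperone values was not tested.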

How the data were processed

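Strand-specific mRNA libraries from the left hippocampus were sequenced as single reads of 50 bases (per the labels' protocols). STAR 2.7.9a, Partek, DESeq2, bcl2fastq 2.19.1.403 and the rat build rn6 are named, without roles, in the submitters' processing notes. How reads were counted, and on which annotation and strand setting, is not given in the sources used here; overlapping genes or copies may share reads.

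The authors deposited estimated counts per gene model (83.2% of values whole, 14834 entries). The deposited CPM of the authors are these counts scaled to the column total, with 1e-04 added, and served only as an alternative. Entries of a symbol were summed, rounded and fitted over all genes with the robust quasi-likelihood test of edgeR 4.0.16 under R 4.3.3, TMM scaling and the default filter by group, leaving 11771 genes tested and 1915 not. All p-values are two-sided, and the adjustment is Benjamini-Hochberg over all genes tested; the common biological coefficient of variation was 0.14. The step was tested on simulated data. CPM in the text are scaled to the library total; log2 CPM (prior count 2) served the correlations, with 100000 permutations. Replicates differed beyond sampling noise (chi-square per degree of freedom 4.38 to 31.0). Whether listed start positions count from 0 or 1 was not settled. Without molecular identifiers, intervals do not cover amplification error.

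Chaperones named with values were those past an adjusted p of 0.05 (0), in each direction the 6 of smallest p at a mean of at least 1 CPM, a fixed set of 16, the most abundant of each class and the 3 most variable; outside the family, in each direction the 3 co-chaperones of smallest p. Hspa12a, LOC108348108, Cryab, Snap25, Rbfox3, Foxj1, Ccdc153, Rsph1, Ttr, Wfs1, Prox1, Gfap, Mbp and those listed by rat were added after their values were seen. The members, gene lists and rules were chosen with earlier results of these data known. Alternatives were DESeq2 1.42.0, limma-voom and the authors' CPM on a log2 scale in limma 3.58.1, DESeq2 size factors, other filters, unsummed entries, a replicate block, a covariate or split by rat number, and the omission of libraries.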

Additional observations from a re-analysis of the deposited data

Results flagged for a closer look

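Hspa1a, an inducible HSP70 gene, was at 5.35 CPM in BT-11 rat 1, whereas the 4 others of its group lay between 3.79 and 4.11 CPM. The gap to the nearest rat was 0.795 of the group's range, above the critical value of 0.71 for 5 samples. It was the 1 such sample in 54 groups of 5 examined, 2 groups for each of 27 named chaperones, and chance flags about 1 group in 20. In the untreated group Hspa1a ranged from 3.80 to 5.94 CPM, so the value lies within the untreated range. Hspa1a overlaps Hspa1l on the opposite strand, and the part of this overlap was not tested.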

How the results depend on the processing

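The count of chaperones past an adjusted p of 0.05 was 0 under 23 of 24 alternatives. It was 2 of 62 (Dnajb13 and Dnajb5, with log2 fold changes of 1.01 and 0.51) among the rats numbered 4 and 5. There 479 of 11919 genes tested passed, against 0 of 11771 in the full comparison. No conclusion is drawn from a pass in that subset, which holds the least different pair of rats of each group. Cryab, a small heat shock gene outside the name rule, was the 1 gene of the co-chaperone list to pass there. DESeq2 called 40 genes in all, none of them a chaperone, and leaving out 1 library at a time gave 0 to 62 genes (62 without untreated rat 3) and 0 chaperones. The count of chaperones higher with BT-11 was 24, and 21 to 34 under the alternatives. The count of correlated pairs was 1, and 0 without untreated rats 2 and 5; with 1 library left out it was 0 to 1.

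Of the 27 named chaperones, 17 kept their direction under every alternative. The 10 that reversed lay between -0.15 and 0.10 in the full comparison. Among the rats numbered 4 and 5 the log2 fold changes were 0.00249 for Dnaja1, 0.0498 for Dnajc2, -0.142 for Dnajc5, 0.0572 for Hsp90ab1, 0.00273 for Hspa4, 0.0368 for Hspa8 and 0.0141 for Hspb6, and that of Hspb1, at 0.03 in the full comparison, was 0.63. Among those numbered 1 to 3 they were -0.0346 for Dnajb1, -0.260 for Hspb1 and -0.0186 for Hsph1. Without untreated rats 2 and 5 Dnajb1 had -0.0415, and on the authors' CPM Hspa4 had 0.00222 with a pseudocount of 1 and 0.002227 with 0.1. With 1 library left out, the ranges were -0.0409 to 0.0377 for Dnajb1, -0.0195 to 0.231 for Dnajc5, -0.0380 to 0.0279 for Hspa4, -0.102 to 0.191 for Hspb1, -0.120 to 0.0604 for Hspb6 and -0.0101 to 0.0869 for Hsph1. The cause was not tested.

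With a replicate block, 0 genes and 0 chaperones passed, and 23 of 62 chaperones were higher. The rat numbers are not known to pair animals: the deviations of same-numbered rats correlated by 0.04 to 0.22, and 1 of 5 numbers matched best with itself. With 5 rats a group, 57.3% of 1.5-fold changes were called in the simulated data for this comparison. For Hspb1, a variable gene with a coefficient of variation of 27.5%, the 95% interval was wide, at -0.48 to 0.54.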
